A study of Mus musculus with 10 samples.

Results

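Import receptors of the beta type carry proteins from the cytoplasm into the nucleus, and 10 of their genes were taken by symbol from the deposited table: the importins Ipo4, Ipo5, Ipo7, Ipo8, Ipo9, Ipo11 and Ipo13 and the transportins Tnpo1, Tnpo2 and Tnpo3. The table held 51456 Ensembl gene IDs, of which 13431 reached 1 FPKM (mapped fragments scaled by gene length and by library size) in at least 5 libraries and were tested. All 10 receptor genes were among those tested, with values from 3.68 to 53.7 FPKM over all libraries.

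The series measured RNA from sorted mouse bone marrow cells in 2 groups of 5 libraries, in a study whose title names the nucleoporin Nup214 as a target in leukaemia stem cells. The HSC-labelled group is described as haematopoietic stem cells of wild-type C57BL/6J mice, sorted as lineage-negative, Sca-1+, c-Kit+ cells (LSK) that carried CD150 and lacked CD48. The LSC-labelled group is described as leukaemia stem cells of mice with acute myeloid leukaemia (AML) driven by the MLL-AF9 fusion gene, sorted as lineage-negative cells that lacked Sca-1 and carried c-Kit, CD16/32 and CD34. The genotype entry of both groups reads Wild-type, no treatment is given for either, and the labels name neither age nor sex. Disease and sort gate differ between the groups at once, so their parts in any difference cannot be told apart. The labels do not say how the fusion gene was introduced or whether each library came from a separate mouse, so p-values measure the spread between these libraries only.

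Several marker genes went against the labels, and others did not. Ly6a, which encodes Sca-1, averaged 0.920 ± 0.917 FPKM (SD, n = 5) under the HSC label and 74.2 ± 24.8 under the LSC label, although the gates should give the opposite order. Slamf1, which encodes CD150, averaged 0.494 ± 0.270 FPKM and 2.85 ± 0.319 in the same order. Fcgr3 and Fcgr2b, which encode low-affinity Fc gamma receptors bound by CD16/32 antibodies, were lower under the LSC label, whose gate takes CD16/32+ cells: Fcgr3 averaged 370.8 ± 116.7 and 197 ± 20.7 FPKM, and Fcgr2b 42.2 ± 5.17 and 26.6 ± 4.13. Cd34, which the LSC gate selects, ran with the labels, at 27.7 ± 13.3 and 91.3 ± 3.60 FPKM. Kit, which both gates select, averaged 21.5 ± 8.36 and 61.6 ± 2.99 FPKM. Cd48, which the HSC gate leaves out, was high in both groups, at 130.3 ± 23.002 and 153 ± 11.8 FPKM, and did not pass the test (adjusted p = 0.1426). Hoxa9, a homeobox gene kept active by MLL fusions, averaged 57.0 ± 7.58 FPKM under the HSC label and 7.06 ± 0.945 under the LSC label. Of 12 MLL-fusion target genes 10 were lower in the LSC-labelled libraries, and of 10 tested haematopoietic stem cell genes 8 were higher. Of all genes tested, 13.8% were lower and 27.2% higher. Meis1 stood in both lists, and Gata2 and Vwf of the stem cell list also counted as mast cell and megakaryocyte markers. Because of these markers the groups are named by label throughout. "Higher" or "lower" means the LSC-labelled against the HSC-labelled libraries. Within the HSC-labelled group, replicate 2 stood apart with 1046 FPKM of the erythroid gene Car1, against 9.9996 to 26.2 in the other 4, and replicate 3 had the lowest Kit and Cd34, at 7.22 and 7.51 FPKM. The globin genes Hba-a1, Hbb-bs and Hbb-bt, also erythroid, were instead highest in replicate 3 of that group. They stood there at 159, 139 and 29.7 FPKM, against 70.8, 84.4 and 28.9 in replicate 2. Steps among the low values gave estimated depths of 13150000 to 34990000 fragments a library, and a value of a receptor rested on an estimated 271 fragments (Ipo4 in HSC-labelled replicate 3) to 16648 (Tnpo3 in LSC-labelled replicate 2).

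Beta-type receptors are built of stacked HEAT repeats that wrap around the cargo, pass through the pore by touching nucleoporins, and release the cargo when Ran-GTP binds inside the nucleus. Importin beta (Kpnb1) works mostly through importin alpha adaptors, whereas the receptors described here mostly bind cargoes directly, among them histones, ribosomal proteins and RNA-binding proteins. Dividing cells bring large amounts of histones and ribosomal proteins into the nucleus, and several receptors can carry the same cargo.

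The promoters of the 4 receptors that were higher in the LSC-labelled libraries are shown first, since the later results turn on these genes. They come from RefSeq (GRCm38.p6) and run from 250 bases before to 50 bases after the annotated start, 5′ to 3′ on the strand of the gene. Capitals mark matches on either strand to 6 motifs that were searched: the E-box CACGTG, the core of the NRF1 site GCATGCGC, an ETS site CCGGAAG, the NF-Y site CCAAT, the GC box GGGCGG and the TATA box TATAAA. No motif of these contains another. The windows lie at chr13:106936909-106937208 (minus strand) for Ipo11, chr14:55635635-55635934 (minus) for Ipo4, chr14:120910944-120911243 (plus) for Ipo5 and chr6:29609800-29610099 (minus) for Tnpo3.
Ipo11: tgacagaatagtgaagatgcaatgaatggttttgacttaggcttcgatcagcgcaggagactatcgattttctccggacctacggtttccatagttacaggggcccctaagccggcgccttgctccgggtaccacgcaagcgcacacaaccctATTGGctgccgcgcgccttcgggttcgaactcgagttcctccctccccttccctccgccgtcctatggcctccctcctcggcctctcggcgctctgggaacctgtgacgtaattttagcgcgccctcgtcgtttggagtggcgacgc
Ipo4: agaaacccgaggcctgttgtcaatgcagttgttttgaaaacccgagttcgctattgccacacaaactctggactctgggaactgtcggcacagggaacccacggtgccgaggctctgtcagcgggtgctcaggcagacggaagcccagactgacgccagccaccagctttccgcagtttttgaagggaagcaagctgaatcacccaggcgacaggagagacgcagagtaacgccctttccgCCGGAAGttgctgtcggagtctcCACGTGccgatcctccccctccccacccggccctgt
Ipo5: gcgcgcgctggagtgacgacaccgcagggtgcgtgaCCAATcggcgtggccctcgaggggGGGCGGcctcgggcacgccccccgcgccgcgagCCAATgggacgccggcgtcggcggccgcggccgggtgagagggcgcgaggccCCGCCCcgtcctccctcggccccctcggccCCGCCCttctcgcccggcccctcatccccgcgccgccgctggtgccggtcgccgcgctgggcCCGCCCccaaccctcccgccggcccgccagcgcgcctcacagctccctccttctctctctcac
Tnpo3: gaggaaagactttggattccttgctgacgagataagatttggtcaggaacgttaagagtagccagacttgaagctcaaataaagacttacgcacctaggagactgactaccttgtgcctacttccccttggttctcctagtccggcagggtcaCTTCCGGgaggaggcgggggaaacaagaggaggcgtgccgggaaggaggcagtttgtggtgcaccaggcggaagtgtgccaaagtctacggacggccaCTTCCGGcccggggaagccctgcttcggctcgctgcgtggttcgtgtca

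Among these windows, that of Ipo11 held a single CCAAT, 97 bases before the start. The window of Ipo4 held an ETS site 9 bases before the start and an E-box 14 bases after it; the RefSeq start lies 273 bases inside the start that GENCODE gives the gene. The window of Ipo5 held 2 CCAAT and 4 GC boxes, and that of Tnpo3 held 2 ETS sites. No motif of the 6 was held by all 4 windows. All 10 genes matched the table, 4 of them with a further start whose window is not shown, and each motif was counted in the window nearest to the GENCODE start. CCAAT stood in 5 of 10 receptor promoters against 37.4% of all 32851 promoters of the table. The GC box stood in 4 of 10 against 35.7%, the E-box in 3 (Ipo4, Ipo7 and Tnpo2) against 7.15%, and the ETS site in 2 (Ipo4 and Tnpo3) against 8.86%. The TATA box stood in 1 (Ipo7) against 13.6% and the NRF1 core in 0 against 2.71%. The GC content of the receptor promoters ranged from 49.3% to 80.7%, beside a median of 52.7% over all promoters. A match is a match of letters and shows no binding.

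Of the 10 receptors 4 were higher in the LSC-labelled libraries, each without overlap between the groups: Ipo11 about 2.05-fold in mean FPKM, Ipo4 1.67-fold, Ipo5 1.46-fold and Tnpo3 1.23-fold. None of the 10 was called lower, and Ipo7, Ipo8, Ipo9, Ipo13, Tnpo1 and Tnpo2 did not pass the test. By limma on log2(FPKM + 1) with Benjamini-Hochberg adjustment over all genes tested and a threshold of 0.05, 4 of 10 receptors were higher and 0 lower, where 27.2% of all genes tested were higher and 13.8% were lower. The groups did not overlap for 4 of 10, against 20.0% of all genes tested with the LSC-labelled libraries above and 9.8% with them below. At an unadjusted p under 0.05, limma called 5 receptors higher and 0 lower, beside 32.4% and 16.6% of all genes tested. All 10 log2 fold changes were above 0, as were 61.02% of those of all genes. Their median was 0.25, against 0.11 over all genes tested. In bulk libraries such as these, fewer cells of a type and less RNA per cell cannot be told apart.

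**Figure D1:**
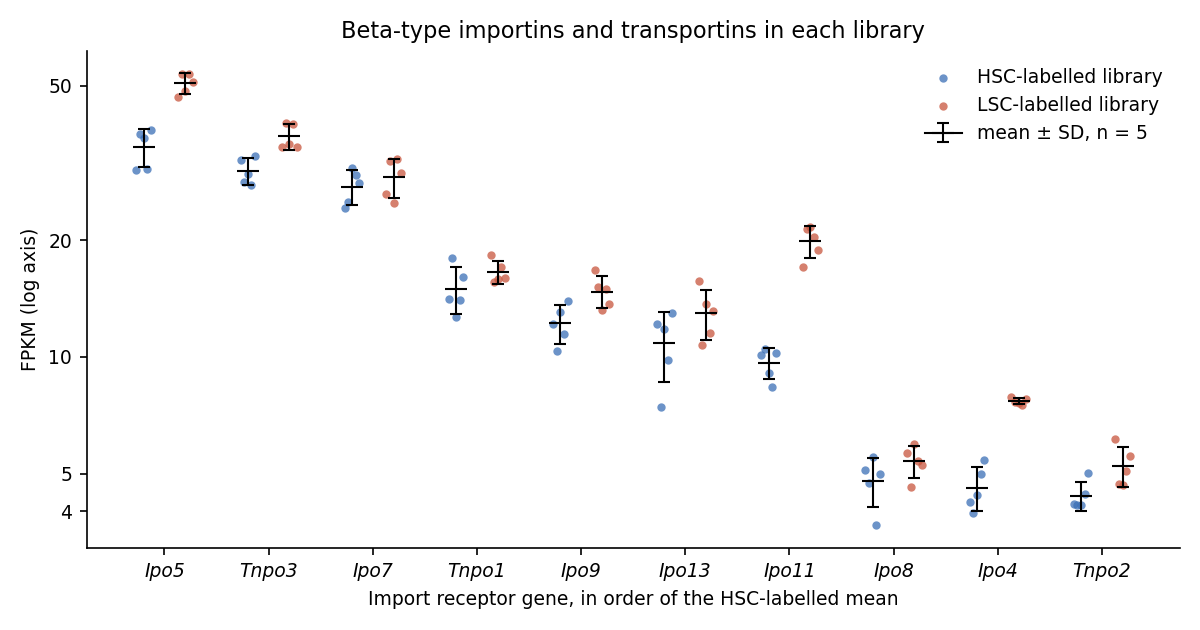
FPKM of the 10 receptor genes in each of the 10 libraries on a log axis, with HSC-labelled libraries in blue, LSC-labelled libraries in red, and black marks for the mean ± SD (n = 5). The points of Ipo11, Ipo4, Ipo5 and Tnpo3 do not overlap between the groups, and those of the other 6 genes do.

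Ipo11 encodes importin 11, known as the receptor of the ubiquitin-conjugating enzyme Ube2e3 and of the ribosomal protein Rpl12. The gene (ENSMUSG00000042590) lies on the minus strand at chr13:106794439-106936958 (GRCm38), and the principal transcript has 30 exons and encodes 975 residues. In HSC-labelled replicates 1 to 5 it stood at 10.1, 10.5, 9.11, 8.34 and 10.3 FPKM. In LSC-labelled replicates 1 to 5 it stood at 17.1, 21.3, 21.6, 20.4 and 18.8 FPKM. The lowest LSC-labelled library was well above the highest HSC-labelled one, and replicate 1 was the lowest of its group. The log2 fold change was 0.97 (SE 0.0938, 95% interval 0.76 to 1.17, adjusted p = 1.921e-05), and 92.86% of all genes tested had a smaller one. Over 22 fits, the one reported and 21 alternatives, it ranged from 0.84 to 1.04 and was called in each. An antisense gene, Gm28989, covers 240 bases or 3.05% of the exons of Ipo11 on the other strand and reached at most 0.155 FPKM in any library.

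Ipo4 encodes importin 4, a receptor for histones H3 and H4, which it takes up together with the chaperone Asf1. The gene (ENSMUSG00000002319) lies on the minus strand at chr14:55625400-55635957 and encodes 1082 residues. It stood at 4.23, 3.96, 4.42, 4.998 and 5.42 FPKM in HSC-labelled replicates 1 to 5. It stood at 7.89, 7.67, 7.60, 7.51 and 7.80 FPKM in LSC-labelled replicates 1 to 5. The LSC-labelled libraries lay close together and all above the HSC-labelled ones, among which replicates 4 and 5 were the highest. The log2 fold change was 0.64 (SE 0.0893, 95% interval 0.44 to 0.84, adjusted p = 0.0002189). It ranged from 0.52 to 0.75 over the 22 fits and was called in all. A readthrough gene on the same strand, Gm49378, shares 2583 bases or 55.3% of the exons of Ipo4 and was not analysed here, so reads may be split between the 2 genes and the level of Ipo4 is uncertain to that extent.

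Ipo5 encodes importin 5, a receptor for ribosomal proteins and core histones, and was the most abundant receptor per transcript length in 9 of 10 libraries. The gene (ENSMUSG00000030662) lies on the plus strand at chr14:120911224-120947999 and encodes 1097 residues. It stood at 30.4, 37.5, 36.6, 30.5 and 38.4 FPKM in HSC-labelled replicates 1 to 5. It stood at 46.7, 53.7, 48.5, 53.7 and 51.0 FPKM in LSC-labelled replicates 1 to 5. HSC-labelled replicates 1 and 4 were low beside the other 3, and none of the 5 reached the lowest LSC-labelled library. The log2 fold change was 0.54 (SE 0.0909, 95% interval 0.34 to 0.74, adjusted p = 0.000747), from 0.40 to 0.61 over the 22 fits and called in all. A processed pseudogene on chromosome X, Gm14857, shares 4.39% of the 50-base stretches of the Ipo5 transcripts and reached at most 0.0791 FPKM.

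Tnpo3 encodes transportin 3, the receptor of the serine- and arginine-rich splicing factors and of the cleavage factor Cpsf6. The gene (ENSMUSG00000012535) lies on the minus strand at chr6:29540827-29609887 and encodes 923 residues. It stood at 32.2, 28.2, 29.7, 27.7 and 33.0 FPKM in HSC-labelled replicates 1 to 5. It stood at 34.7, 40.2, 35.4, 39.9 and 34.7 FPKM in LSC-labelled replicates 1 to 5. The groups did not overlap but came close, and LSC-labelled replicates 2 and 4 were the highest. The log2 fold change was 0.29 (SE 0.0822, 95% interval 0.11 to 0.47, adjusted p = 0.01617). It was called in 15 of the 22 fits and is the call of the 4 that depended on the processing: after median-of-ratios scaling, which sets the median gene level, it was 0.15 (adjusted p = 0.1449). The neighbouring gene Irf5 covers 411 bases or 3.14% of the exons of Tnpo3 on the other strand, and its level was lower, at 59.7 ± 20.5 FPKM under the HSC label and 18.5 ± 4.19 under the LSC label. The sources used here do not say whether counting used strand, so reads of these 2 genes may be mixed in the shared bases.

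Without HSC-labelled replicates 2 and 3, the libraries that stood apart by their markers, the log2 fold change was 0.98 for Ipo11, 0.57 for Ipo4 and 0.61 for Ipo5, all still called. For Tnpo3 it was 0.25 and no longer passed (adjusted p = 0.07029). Without HSC-labelled replicates 3 and 4, whose scaling factors stood apart from those of the other libraries, the values in the same order were 0.88, 0.66, 0.51 and 0.24, and Tnpo3 again did not pass (adjusted p = 0.06669). Both left-out pairs were chosen after the data were seen. Median-of-ratios scaling moved the median log2 fold change of all genes from 0.11 to -0.01. On that scale Ipo11, Ipo4 and Ipo5 were higher, with 0.84, 0.52 and 0.40, so 3 of 10 receptors were called higher, where 20.7% of all genes tested were.

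**Figure D2:**
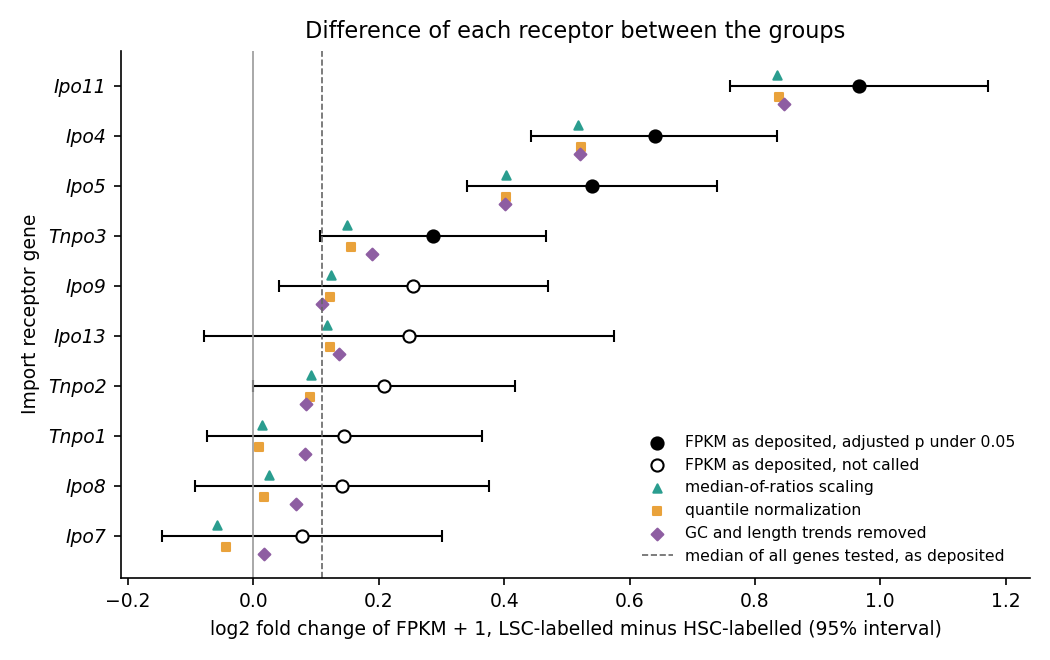
Log2 fold change of FPKM + 1 for each receptor (black points, filled where the adjusted p was under 0.05, with 95% intervals) and the value after 3 other scalings in colour, with the median of all genes tested as a dashed line. The line is the median of the values as deposited. Ipo11, Ipo4 and Ipo5 lie far above it under every scaling drawn, and Tnpo3, Ipo9 and Ipo13 also stay above it, more narrowly. Ipo7 moves to the other side of 0 under median-of-ratios scaling and quantile normalization.

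The remaining histone and ribosomal protein receptors did not pass the test. Ipo9, a receptor for histones H2A and H2B and for actin, ranged from 10.4 to 14.0 FPKM under the HSC label and from 13.2 to 16.7 under the LSC label, and 3 LSC-labelled libraries lay above all HSC-labelled ones. Its log2 fold change was 0.26 (95% interval 0.04 to 0.47, adjusted p = 0.05722), and it passed in 1 of the 22 fits, the one without HSC-labelled replicate 5 (0.30, adjusted p = 0.03348). Ipo7, which carries ribosomal proteins and, as a partner of importin beta, histone H1, ranged from 24.2 to 30.7 FPKM and from 25.0 to 32.4 FPKM in the same order of groups. Its log2 fold change of 0.08 (95% interval -0.15 to 0.30, adjusted p = 0.5725) was the smallest of the 10 and changed sign under 2 other scalings, to -0.06 under median-of-ratios scaling and -0.04 under quantile normalization. Ipo8, its closest relative, which carries Smad and Argonaute proteins, ranged from 3.68 to 5.504 and from 4.61 to 5.98 FPKM (log2 fold change 0.14, 95% interval -0.09 to 0.38, adjusted p = 0.3168).

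Of the transportins that carry hnRNP proteins, neither passed. Tnpo1 ranged from 12.7 to 18.02 FPKM under the HSC label and from 15.6 to 18.3 under the LSC label, with a log2 fold change of 0.15 (95% interval -0.07 to 0.36, adjusted p = 0.2718). HSC-labelled replicate 2 held the highest Tnpo1 of its group. A processed pseudogene on chromosome 16, Gm6493, shares 10.5% of the 50-base stretches of the Tnpo1 transcripts and ranged from 1.78 to 3.15 FPKM over all libraries, highest in the same replicate, so reads may be split between the 2 genes. Tnpo2 ranged from 4.15 to 5.01 and from 4.68 to 6.15 FPKM, with a log2 fold change of 0.21 (95% interval -0.0003 to 0.42, adjusted p = 0.1026). An opposite-strand transcript, A230103J11Rik, covers 10.6% of the exons of Tnpo2 and reached at most 0.136 FPKM. Ipo13, which imports the exon junction proteins Magoh and Rbm8a and exports Eif1ax, varied most within groups. It ranged from 7.44 to 13.0008 FPKM and from 10.7 to 15.7 FPKM, with HSC-labelled replicate 2 the lowest library, and its log2 fold change was 0.25 (95% interval -0.08 to 0.57, adjusted p = 0.2089).

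In the HSC-labelled libraries the order of mean levels per transcript length was Ipo5, Tnpo3, Ipo7, Tnpo1, Ipo9, Ipo13, Ipo11, Ipo8, Ipo4 and Tnpo2. Neighbours in that order overlapped in range except at 2 steps, from Ipo7 at 27.5 ± 2.79 FPKM down to Tnpo1 at 14.97 ± 2.0998, and from Ipo11 at 9.66 ± 0.907 down to Ipo8 at 4.80 ± 0.686. In the LSC-labelled libraries Ipo11 moved from place 7 to place 4 of the means, and it held place 4 in 4 libraries and place 5 in replicate 1. There the order was Ipo5, Tnpo3, Ipo7, Ipo11, Tnpo1, Ipo9, Ipo13, Ipo4, Ipo8 and Tnpo2, and the pairs that overlapped were Ipo11 with Tnpo1, Tnpo1 with Ipo9, Ipo9 with Ipo13, and Ipo8 with Tnpo2. Ipo4 took place 8 in all 5 LSC-labelled libraries and places 8 to 10 in the HSC-labelled ones.

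The 10 receptors summed to 153.8 ± 9.33 FPKM under the HSC label and 199.2 ± 7.15 FPKM under the LSC label. Shares of that sum do not move with the scaling of a library, and they were not tested. The share of Ipo11 was 5.77% to 6.995% under the HSC label and 8.74% to 11.3% under the LSC label, without overlap. Ipo4 also took a larger share without overlap, 2.64% to 3.46% against 3.61% to 4.04%. Ipo7 took a smaller share without overlap, 16.3% to 20.4% against 13.1% to 15.6%. The share of Ipo5 averaged 22.5% and 25.4%, with overlapping ranges, and that of Tnpo3 averaged 19.6% and 18.6%. A share of a fixed sum falls when another member rises, so the lower share of Ipo7 goes with a level in FPKM that did not pass the test.

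**Figure D3:**
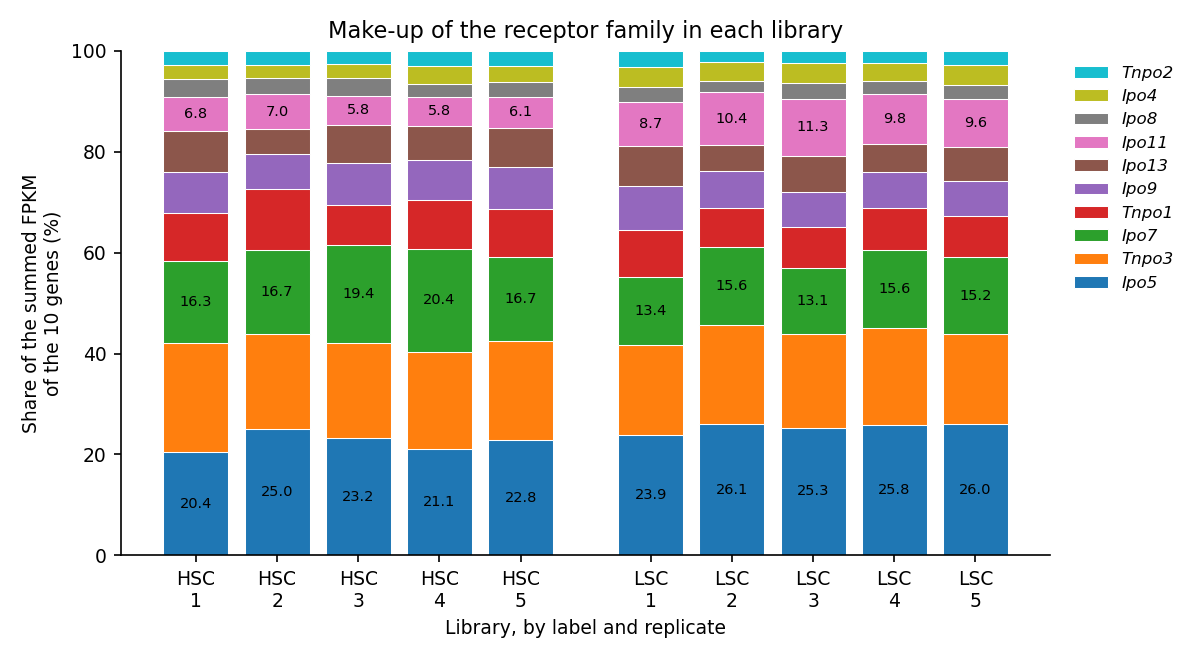
Share of each receptor in the summed FPKM of the 10 genes, in percent, for each library, with the shares of Ipo5, Ipo7 and Ipo11 printed in the bars. The Ipo11 band is wider in every LSC-labelled library than in any HSC-labelled one, and the Ipo7 band is narrower.

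Pairs of related receptors were compared within each library, which also removes the scaling. In protein sequence, translated from the principal GENCODE transcripts, Tnpo1 and Tnpo2 were 85.4% identical and Ipo7 and Ipo8 64.1%, while Ipo13 and Tnpo3 were 25.4% and Ipo4 and Ipo5 25.0% identical. The 45 pairs among the 10 proteins ranged from 17.8% to 85.4% with a median of 21.5%. Tnpo1 exceeded Tnpo2 in every library, by 3.06- to 4.35-fold in FPKM under the HSC label and 2.87- to 3.39-fold under the LSC label. Ipo7 exceeded Ipo8 by 4.73- to 8.01-fold and 4.18- to 6.95-fold, and Ipo5 exceeded Ipo4 by 6.11- to 9.47-fold and 5.93- to 7.15-fold. Ipo13 was 0.264 to 0.398 times the level of Tnpo3 under the HSC label and 0.267 to 0.451 times under the LSC label.

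None of the 4 ratios, taken as log2 ratios of FPKM + 1, passed a test of the difference between groups. The mean log2 ratio of Tnpo1 to Tnpo2 was 1.56 ± 0.188 under the HSC label and 1.498 ± 0.0911 under the LSC label (two-sided exact permutation test, p = 0.62698). For Ipo7 to Ipo8 it was 2.30 ± 0.246 and 2.24 ± 0.267 (exact p = 0.68254). For Ipo13 to Tnpo3 it was -1.41 ± 0.219 and -1.45 ± 0.297 (exact p = 0.84921), and for Ipo5 to Ipo4 2.67 ± 0.215 and 2.57 ± 0.105 (exact p = 0.38889). Adjusted over the 4 ratios every p was 0.84921, and the smallest p that 5 against 5 libraries allow is 0.00794. The ranges of the groups overlapped for every ratio, so Ipo5 and Ipo4, both higher in the LSC-labelled libraries, showed no difference in balance that was detectable with these libraries.

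**Figure D4:**
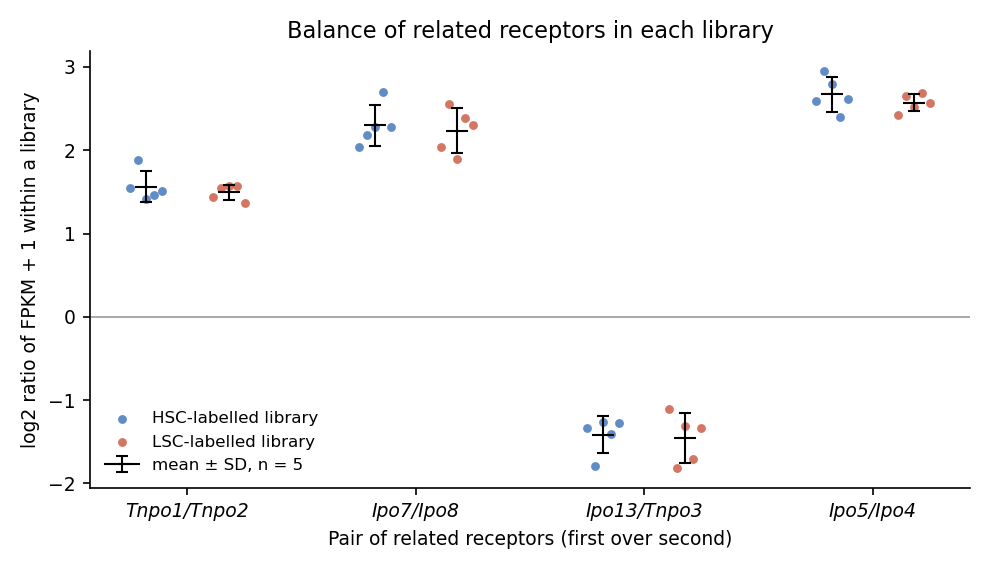
Log2 ratio of FPKM + 1 for 4 pairs of related receptors in each library, with the mean ± SD (n = 5) of each group in black. The groups overlap for every pair, and HSC-labelled replicate 2 is the highest point for Tnpo1/Tnpo2 and the lowest of its group for Ipo13/Tnpo3.

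The other genes of nuclear transport and the known cargoes of these receptors were taken from 10 lists with 76 genes, of which 74 were tested. Of these 28 were higher, 1 was lower and 45 did not pass, beside 27.2% of all genes called higher and 13.8% called lower. The count of those called higher fell to 17 after median-of-ratios scaling, and the count of those called lower rose to 3. On that scale 20.7% of all genes tested were higher and 20.0% were lower.

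The counts below stand beside 27.2% higher and 13.8% lower among all genes tested, with a median log2 fold change of 0.11. Among the partners of the pathway, 2 of 6 tested importin alpha and beta genes were higher (median log2 fold change 0.21). Kpnb1, importin beta itself, rose from 14.3 ± 1.66 to 22.0 ± 1.43 FPKM (log2 fold change 0.60, adjusted p = 0.0004153), and the importin alpha Kpna3 from 15.7 ± 1.33 to 22.2 ± 2.58. Of 8 exportins 5 were higher (median 0.25), among them Cse1l, which returns importin alpha to the cytoplasm, from 45.3 ± 3.70 to 62.5 ± 4.47 FPKM, and Xpo4 from 5.27 ± 1.07 to 7.11 ± 0.320. Only 2 exportins passed after median-of-ratios scaling and 1 passed without the filter on low genes. Of 7 tested genes of the Ran cycle 4 were higher (median 0.41), led by Nutf2, which returns Ran-GDP to the nucleus, from 80.7 ± 12.8 to 133 ± 5.98 FPKM, and Rangap1, which triggers GTP hydrolysis by Ran, from 47.5 ± 8.30 to 72.2 ± 8.54. Of 3 other import factors Hikeshi, the carrier of Hsp70, rose from 14.9 ± 2.71 to 22.2 ± 2.35 FPKM, while Ranbp6, a close relative of Ipo5, averaged 4.33 ± 0.402 and 4.01 ± 0.426 FPKM, with a log2 fold change of -0.09 (adjusted p = 0.4661). Nup214, the pore protein in the title of the series, was higher, at 12.1 ± 1.47 against 18.1 ± 1.23 FPKM (log2 fold change 0.55, adjusted p = 0.000899).

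The lists of cargoes are short, and differences between them were not tested. Beside them, 27.2% of all genes tested were higher and 13.8% lower, with a median of 0.11. Among the cargoes of importin 11, Ube2e3 rose from 15.5 ± 3.11 to 31.2 ± 2.49 FPKM without overlap (log2 fold change 0.98, adjusted p = 0.0001051) and Rpl12 from 80.4 ± 14.1 to 106 ± 7.72 with overlap. Of 9 histone chaperones, proteins that escort histones on their way to chromatin, 5 were higher and 1 lower (median 0.31). Chaf1b, a subunit of the chromatin assembly factor, rose from 24.2 ± 5.17 to 39.6 ± 2.90 FPKM and Rbbp7 from 132 ± 11.4 to 192 ± 12.7, while Asf1b, a chaperone of histones H3 and H4 found mostly in dividing cells, fell from 90.4 ± 14.9 to 71.7 ± 4.02 (log2 fold change -0.32, adjusted p = 0.03734, with overlap). Of 11 transportin 3 cargoes 2 were higher (median 0.07), the splicing factors Srsf1, from 22.9 ± 4.90 to 31.9 ± 3.64 FPKM, and Srsf7, from 205 ± 23.1 to 251 ± 28.2, both with overlap. That count ranged from 0 to 4 over the alternatives.

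For the remaining lists the same shares apply, 27.2% of all genes tested higher and 13.8% lower, with a median of 0.11. Of 14 cargoes of transportins 1 and 2, 3 were higher (median 0.14), among them the RNA-binding proteins Hnrnpa1, from 99.7 ± 11.8 to 156 ± 5.72 FPKM, and Hnrnpa0, from 8.38 ± 1.92 to 12.9 ± 1.21. Of 6 importin 13 cargoes 3 were higher (median 0.26), with Magoh rising from 83.7 ± 15.02 to 117 ± 15.4 FPKM and the initiation factor Eif1ax from 19.5 ± 2.65 to 27.7 ± 3.75. Of 7 ribosomal protein cargoes Rps3 alone passed, from 419 ± 41.7 to 500.3 ± 34.1 FPKM (median of the list 0.04). The count of this list ranged from 0 to 2 over the alternatives. It was 0 after each of the 4 other scalings and without any of HSC-labelled replicates 1, 3 and 5 or LSC-labelled replicates 2, 4 and 5, left out in turn, and 2 without HSC-labelled replicate 4.

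**Figure D5:**
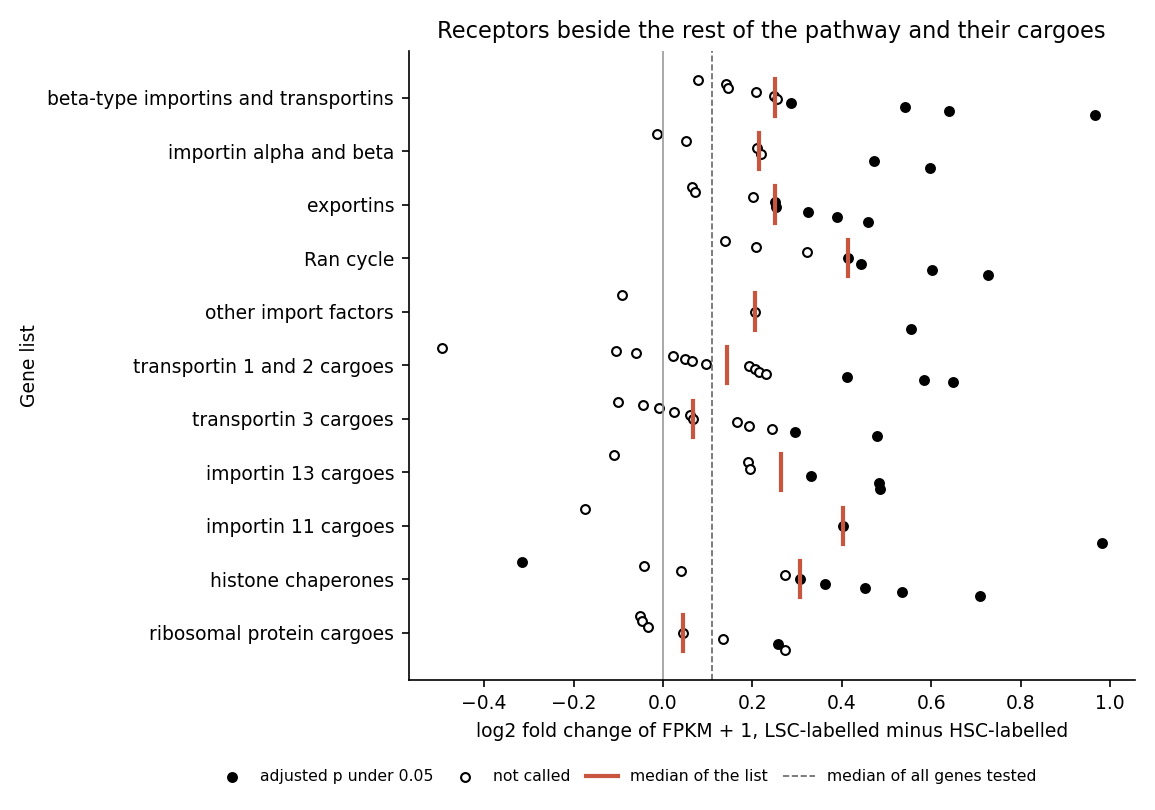
Log2 fold change of FPKM + 1 of every tested gene in the receptor family and in 10 lists of partners and cargoes, filled where the adjusted p was under 0.05, with the median of each list in red and that of all genes tested as a dashed line. The medians run from 0.04 for ribosomal protein cargoes to 0.41 for the Ran cycle.

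In most lists of markers of other cells and of division, more genes were higher than lower, while the monocyte and macrophage list went the other way. Of all genes tested, 27.2% were higher and 13.8% lower. Of 20 cell-cycle genes 9 were higher, 1 was lower and 10 did not pass. Their summed level was 1521 to 1836 FPKM under the HSC label and 1943 to 2092 under the LSC label. Markers of megakaryocytes and platelets were higher for 7 of 7 tested genes (summed 20.6 to 268 against 779 to 1263 FPKM), of mast cells and basophils for 6 of 7 (40.9 to 133 against 791 to 1776), and of stroma, bone and endothelium for 7 of 8 (19.9 to 53.5 against 282 to 1035). Erythroid markers were higher for 6 of 10 genes (109 to 1658 against 1410 to 2930 FPKM) and neutrophil markers for 7 of 8 (593 to 3342 against 1721 to 20040). B cell markers were higher for 4 of 5 (31.8 to 52.0 against 37.7 to 65.8 FPKM) and T and NK cell markers for 4 of 4 (2.31 to 7.29 against 23.8 to 56.5). Monocyte and macrophage markers were lower for 6 of 8 genes (658 to 886 against 283 to 351 FPKM). None of the listed markers was at 0 in every library, and the part of any of these in the levels of the receptors was not tested.

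The genes whose profiles over the 10 libraries lay closest to the 3 receptors of largest change were sought among 10710 tested protein-coding genes, by the root-mean-square difference of log2(FPKM + 1) after each gene's own mean was subtracted. For Ipo11 these were Dzip3, an E3 ubiquitin ligase gene, with a difference of 0.0791, and Usp10, a deubiquitinase gene, with 0.0899. Dzip3 averaged 1.90 FPKM under the HSC label and 4.53 under the LSC label, and Usp10 21.005 and 41.9. For Ipo4 they were Trp53, which encodes p53, with 0.0787, and Apool, a mitochondrial protein gene, with 0.0830. For Ipo5 they were Ddx1, an RNA helicase gene, with 0.0539, and Katnal1, a relative of the microtubule-severing katanin, with 0.0593. The 2 groups of libraries dominate such a measure, and it describes likeness only.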

How the data were processed

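RNA of sorted bone marrow cells was measured by RNA-seq in 10 libraries, 5 to a label. Per the labels' protocols, total RNA was taken with a miRNeasy kit, reverse-transcribed and amplified by Geo-seq for small inputs, and made into libraries with a TruePrep kit. Per the submitters' processing notes, the build was mm10 and the tools named were Bowtie 0.12.9, Cufflinks 2.1.1, HTSeq and DESeq2; the sources used here do not give their roles, the annotation release or strand use.

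The authors deposited FPKM values, normalized for gene length and library size, and no counts were analysed here. Of 51456 gene IDs 51187 matched GENCODE M21 (GRCm38), which gave symbols and coordinates, and 269 did not match. Steps of low values were whole within 0.05 of a fragment for 63.6% to 76.6% of them, too few for a count test. At these depths a gene under 1 FPKM rests on few fragments.

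Log2(FPKM + 1) was tested with limma 3.58.1 in R 4.3.3 (two-sided, mean trend, Benjamini-Hochberg over 13431 genes). Values are mean ± SD of FPKM, n = 5. The fit was tested on simulated data. Ratios of related receptors were tested by exact permutation. Other steps used Python 3.11.15, pandas 2.3.3 and matplotlib 3.10.9. The receptors, gene lists and tests were chosen with earlier results of these data known. Named genes were all receptors, Nup214, Ranbp6, in each list the 2 called genes that changed most and averaged 5 FPKM or more in the higher group, and the 2 nearest profiles of 3 receptors; Irf5, Asf1b and genes that overlap or resemble receptors were named after their values were seen. Some listed genes are not reported here. Alternatives were other pseudocounts, no filter, other scalings, limma without the trend, a replicate block, each library left out, and 2 pairs of HSC-labelled libraries left out, the last chosen after the data were seen.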

Additional observations from a re-analysis of the deposited data

Results flagged for a closer look

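Each of the 10 receptors and 4 ratios was examined in both groups of 5 libraries, 28 groups of values in all, for a library far from the others by Dixon's criterion, which chance meets in about 1 group in 20. It was met by 2 of the 28, both in HSC-labelled replicate 2. That library had the highest Car1 and summed megakaryocyte and platelet markers of its group, though not the highest globin genes. There the log2 ratio of Tnpo1 to Tnpo2 was 1.8855, against 1.41 to 1.54 in the other 4 HSC-labelled libraries, a gap of 0.723 of the range of the group. The log2 ratio of Ipo13 to Tnpo3 was -1.792, against -1.41 to -1.26 in the other 4, a gap of 0.722 of the range; LSC-labelled replicate 2 was as low, at -1.81.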

How the results depend on the processing

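Over 21 alternatives to the fit of the receptors, 200 of 210 values kept their direction and their side of the threshold, 7 lost the call (all Tnpo3), 1 gained one (Ipo9) and 2 changed sign (Ipo7, -0.0584 and -0.0441 under median-of-ratios scaling and quantile normalization). Ipo11, Ipo4 and Ipo5 were called in every one. The call of Tnpo3 was lost without the filter, under 3 of 4 other scalings, with the replicate block and without either pair of HSC-labelled libraries, and kept with a common sum without ribosomal RNA (0.2403, adjusted p = 0.03154); the cause was not tested. The count of receptors called higher was 3 to 5, and 0 were called lower. The median log2 fold change of the receptors was 0.1209 with median-of-ratios scaling, 0.1224 with quantiles made equal and 0.1232 after removal of GC and length trends; there the median of all genes was -0.0082, -0.0203 and -0.0198 instead of 0.1086; leaving out 1 library gave 0.1959 to 0.3077 for the receptors. These scalings moved the calls over all genes from 3654 higher and 1859 lower to 2777 and 2690, 2786 and 2833, and 2753 and 3019.

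Of the pathway genes, 28 were higher and 1 lower. Median-of-ratios scaling gave 17 higher, where 20.7% of all genes tested were. The number lower was 0 without the filter, 3 with either median-of-ratios scaling or quantile normalization, 5 with GC and length trends removed and 0 without HSC-labelled replicates 3 and 4. Leaving out 1 library gave 23 to 32 higher and 0 to 1 lower.

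No ratio passed under any alternative (adjusted p 0.5714 to 1.0). Leaving out 1 library gave differences from -0.1014 to 0.0174 for Tnpo1/Tnpo2, -0.1441 to 0.0376 for Ipo7/Ipo8, -0.133 to 0.0519 for Ipo13/Tnpo3 and -0.1688 to -0.0281 for Ipo5/Ipo4. Without HSC-labelled replicates 2 and 3 that of Ipo5/Ipo4 was 0.0378; without replicates 3 and 4 those of Ipo7/Ipo8 and Ipo13/Tnpo3 were 0.066 and 0.0156.

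The values do not settle whether replicate numbers pair the libraries. Deviations of same-numbered libraries from their group means correlated from -0.29 to 0.225. Of 10 libraries 4 correlated best with their own number, which is a hint from the data and not the design. With the replicate block 3 receptors, 25 pathway genes higher and 0 lower passed, and the ratios had an adjusted p of 0.75 (exact sign-flip test, smallest p 0.0625). Of 140 shares 5 moved, all of low receptors with a pseudocount of 1. Depth limits Ipo4, Tnpo2 and Ipo13 most, whose lowest values rest on an estimated 271, 343 and 654 fragments.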
